A study of Mus musculus with 16 samples.

Results

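The HoxD cluster is a row of 9 Hox genes on mouse chromosome 2, Hoxd13 to Hoxd1, with the related homeobox gene Evx2 beside Hoxd13. The 10 genes and 10 kb on each side formed a span of 132154 bp (chromosome 2, 74642989 to 74775142, mm10). The 3 deposited lists place 26 of their 135884 regions in this span, of which 11 are succinyllysine, 4 H3K4me3 and 11 H3K27me3 regions. The 10 genes are among 21887 protein-coding genes of the annotation, and each one was described whether or not a region touched it.

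Hox genes encode homeodomain transcription factors that give cells their position along the body axis and the limbs. In the embryo the genes of a cluster become active in the order in which they lie, and mesenchymal cells such as fibroblasts often keep a record of their position in the set of Hox genes they express. Active Hox chromatin carries H3K4me3, the trimethyl mark of promoters placed by MLL and SET1 enzymes, and silent Hox chromatin carries H3K27me3, placed by Polycomb repressive complex 2. Succinyllysine is a lysine that bears a succinyl group, which can come from succinyl-CoA of the mitochondrial tricarboxylic acid cycle.

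The cells were immortalized mouse embryonic fibroblasts of 2 genotypes, R26M2rtTA/+;TetOcre;Sdhcfl/fl (experimental) and R26M2rtTA/+;TetOcre;Sdhcfl/wt (control). Both lines carried the doxycycline-dependent transactivator and the Cre recombinase it switches on, and both received doxycycline at 1 µg/mL and were collected at day 16. Cre removes floxed Sdhc, a membrane subunit of succinate dehydrogenase, from both copies in the experimental line and from 1 copy in the control line. Each line gave 2 samples for each of the 3 antibodies and 2 of input chromatin, 16 in all. Each genotype is 1 cell line, and separate cultures are not stated for its samples. For each antibody the authors deposited a single list for its 4 ChIP samples, 2 from each line. Every value below therefore describes a list with no replicate error, no height per region and unknown read depth, and the 2 genotypes cannot be told apart in it. With no values per sample there is no test, and shares of all genes or of the whole lists are given for comparison.

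The fibroblast label was checked on marker genes. H3K4me3 lay within 1000 bp of a gene end at 10 of 12 fibroblast genes, all but Thy1 and Lum, and H3K27me3 at 0. Of 6 epithelial genes 3 had H3K4me3 and 2 had H3K27me3 at an end, of 6 blood and endothelial genes 3 and 0, and of 4 neural genes 2 and 3. Of all genes, 55.6% had H3K4me3 and 13.6% had H3K27me3 at an end, so the H3K4me3 counts of the 3 other lists were near the share of all genes. Neighbouring regions of a list often met with no gap, at 1911 places among the 26654 H3K4me3 regions, 417 among the 10888 succinyllysine regions and 12789 among the 98342 H3K27me3 regions. The width of a single region is therefore partly a matter of where the list was divided.

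The cluster fell into 2 blocks. A block of H3K4me3 ran from beyond Evx2 into Hoxd9, and H3K27me3 filled the cluster from a few kb past the start of Hoxd3 to beyond Hoxd1. Between them lay a stretch around Hoxd8 where short regions of both marks alternated. Succinyllysine was listed in the H3K4me3 block alone. In the map of the cluster the 3 marks can be followed gene by gene.

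**Figure D1:**
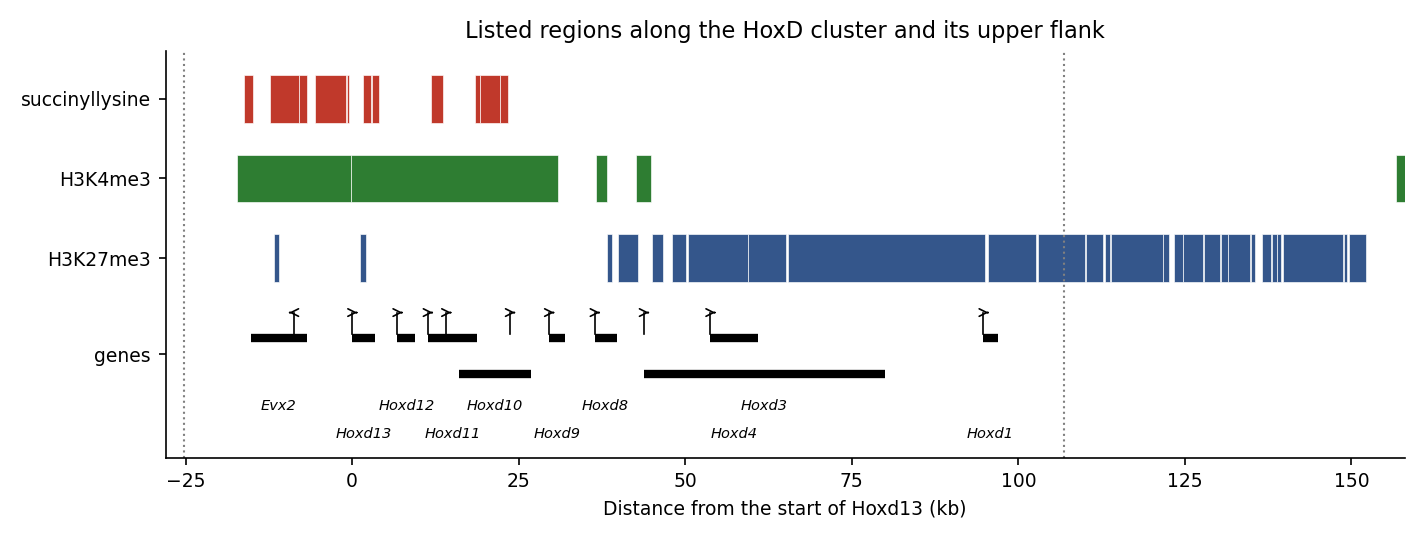
Regions of the 3 deposited lists (boxes) along the HoxD cluster, by distance in kb from the annotated start of Hoxd13; black bars are the 10 genes, arrows their annotated starts and direction, and dotted lines the limits of the span. The 11 succinyllysine regions lie over the H3K4me3 block at the left, and the long H3K27me3 block at the right holds 0 of them.

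The promoters show what kind of sequence lay under each block. The following are the 250 bases before the start of 5 genes, 5′ to 3′, from RefSeq on GRCm38.p6 (mm10 coordinates), with CpG dinucleotides in capitals. Hoxd13 and Hoxd10 are shown because H3K4me3 covered and succinyllysine approached their starts, Hoxd8 as the first start past the H3K4me3 block, and Hoxd4 and Hoxd1 as starts under H3K27me3. In that order they are chr2:74667975-74668224, chr2:74691641-74691890, chr2:74704365-74704614, chr2:74721728-74721977 and chr2:74762730-74762979, all on the plus strand.
Hoxd13: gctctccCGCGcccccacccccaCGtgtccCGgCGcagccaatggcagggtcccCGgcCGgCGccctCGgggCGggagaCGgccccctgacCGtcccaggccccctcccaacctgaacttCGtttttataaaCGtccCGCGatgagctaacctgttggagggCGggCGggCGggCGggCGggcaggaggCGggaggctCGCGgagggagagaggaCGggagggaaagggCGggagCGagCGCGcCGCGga
Hoxd10: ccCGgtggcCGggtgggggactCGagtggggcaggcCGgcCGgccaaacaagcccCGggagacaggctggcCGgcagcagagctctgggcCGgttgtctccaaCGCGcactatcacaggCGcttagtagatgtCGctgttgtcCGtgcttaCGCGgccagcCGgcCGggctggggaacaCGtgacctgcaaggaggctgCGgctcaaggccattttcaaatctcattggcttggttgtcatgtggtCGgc
Hoxd8: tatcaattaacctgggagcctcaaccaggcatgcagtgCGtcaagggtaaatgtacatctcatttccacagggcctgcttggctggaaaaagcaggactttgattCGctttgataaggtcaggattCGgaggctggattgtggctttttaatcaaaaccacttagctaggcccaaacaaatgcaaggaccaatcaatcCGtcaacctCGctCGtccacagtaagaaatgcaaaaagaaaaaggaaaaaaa
Hoxd4: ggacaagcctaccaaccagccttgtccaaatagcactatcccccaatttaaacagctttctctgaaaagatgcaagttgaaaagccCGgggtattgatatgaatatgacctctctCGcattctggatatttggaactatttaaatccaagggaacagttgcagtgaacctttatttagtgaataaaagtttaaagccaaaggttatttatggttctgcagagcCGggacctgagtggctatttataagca
Hoxd1: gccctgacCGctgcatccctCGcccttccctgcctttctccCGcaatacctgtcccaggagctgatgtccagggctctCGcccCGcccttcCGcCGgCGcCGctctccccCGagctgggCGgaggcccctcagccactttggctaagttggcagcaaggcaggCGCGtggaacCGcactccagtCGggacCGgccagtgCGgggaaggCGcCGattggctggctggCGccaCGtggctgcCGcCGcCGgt

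These 250 bases held 31 CpG at Hoxd13, 20 at Hoxd10, 6 at Hoxd8, 3 at Hoxd4 and 24 at Hoxd1. The RefSeq promoter table gave 11 promoters for the 10 genes (2 for Hoxd11), each of 250 bases before and 50 after the start. Over the 300 bases, Hoxd13 had 37 CpG, a number that 7.29% of 21263 protein-coding promoters reach, and Hoxd1 had 29, which 17.2% reach. Hoxd4 and the first Hoxd11 promoter had 4 each, beside a median of 13 over all promoters. CpG number did not sort the members by histone mark. The 8 member promoters with H3K4me3 alone held 4 to 37 CpG, and the 2 with H3K27me3 alone held 4 and 29. Over all promoters the median was 22 with H3K4me3 alone, 22 with both marks and 6 with H3K27me3 alone.

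Short motifs were searched on both strands of the 300 bases, and matches are given as letters found. GGGCGG, the GC box letters, occurred in 4 of 11 member promoters and in 46.2% of all promoters, with 7 matches at Hoxd13. CCAAT occurred in 7 of 11 and in 38.2% of all. TATAAA occurred in 3 of 11 and in 12.6% of all, at Evx2, Hoxd13 and Hoxd4. AGGTCA, the letters of a nuclear receptor half-site, occurred in 4 of 11, at Hoxd10, Hoxd8, Hoxd3 and Hoxd4, and in 14.7% of all. TGACAG occurred in 1 of 11 (Evx2) and in 18.7% of all, and TGATNNAT in 2 of 11 (Evx2 and the second Hoxd11 promoter) and in 7.45% of all.

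H3K4me3 formed the block at the 5′ end of the cluster. A region of 17000 bp (74651001 to 74668000) covered Evx2, and the next one, of 31100 bp (74668001 to 74699100), began at the following base. The first ranks 10th of 26654 in width and the second 1st. Their shared edge lay 224 bp before the start of Hoxd13, in the middle of covered sequence. Joined, they made a domain of 48100 bp, the widest of the list once all regions without a gap are joined. When gaps up to 1000 bp were bridged as well, it ranked 2nd of 22492. Of the span, 39.4% lay under H3K4me3, beside 1.86% of all chromosomes as spanned by genes and regions.

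Genes in this domain were covered along their length, not at their promoters alone. Evx2, Hoxd13, Hoxd12, Hoxd11 and Hoxd10 lay under H3K4me3 over 100% of their length (8532, 3379, 2693, 7459 and 10834 bp). Hoxd9 was covered over 54.7% of its 2446 bp, since the domain ended 1337 bp past its start. Hoxd8 was covered over 51.2% by a separate region. In all, 7 of 10 members had at least 50% of their length under H3K4me3, against 7.01% of all genes. The members are short, with a median of 5281 bp beside 17169 bp for all genes, and they share regions, so they are not independent cases.

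Evx2 encodes a homeodomain factor related to even-skipped that acts in limb and spinal cord. Its start (74659557, minus strand) lay 8668 bp from that of Hoxd13, and the genes are transcribed away from each other. Succinyllysine covered 70.5% of Evx2, and a 4400 bp region (74655901 to 74660300) lay across its start, with 743 bp before it and 3656 bp after it. All 2001 bp around this start were covered by succinyllysine and by H3K4me3. At least 50% of the gene under succinyllysine was found for 1 of 10 members, Evx2, and for 0.206% of all genes.

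Hoxd13, which patterns digits and the genital tubercle, had succinyllysine on either side of its start (74668225) but not over it. A 4600 bp region (74662701 to 74667300) and a 400 bp region (74667401 to 74667800) stopped 425 bp before the start. A 1200 bp region (74669801 to 74671000) began 1576 bp after it, and a 1000 bp region (74671201 to 74672200) passed the end of the gene. The 4600 bp region lay between Evx2 and Hoxd13, over the noncoding RNA gene Gm31790, of whose 5341 bp 78.5% was under succinyllysine. It ranks 115th of 10888 in width.

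Hoxd11, which acts with its HoxA counterpart in the forearm, has 2 annotated starts, at 74679558 and 74682323. A 1700 bp succinyllysine region (74680101 to 74681800) lay between them, 543 bp after the first and 523 bp before the second. Hoxd10, a gene of limb and lumbar spinal cord patterning, had 3 succinyllysine regions that met with no gap, of 800, 3100 and 1200 bp (74686601 to 74691700). Together they made a stretch of 5100 bp that ended 191 bp before the Hoxd10 start (74691891). The 800 bp region lay across the annotated end of Hoxd11 (74687016), so it overlapped both genes. The 3100 bp region in the middle began 385 bp past that end and lay inside the Hoxd10 record. The window around the Hoxd11 end therefore takes in both regions, although the 3100 bp region does not touch Hoxd11.

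Hoxd12, which lies between Hoxd13 and Hoxd11 and acts in distal limb, had no succinyllysine region. The one nearest to its start (74675013) ended 2813 bp before it. Hoxd9, a gene of trunk and proximal limb, also had none, and the one nearest to its start lay 6063 bp away. Both had H3K4me3 over all 2001 bp around their starts, as did Evx2, Hoxd13, Hoxd11 and Hoxd10. Coverage by H3K4me3 was thus the same at these 6 genes, while succinyllysine covered 100% of the window at Evx2, 40.5% at Hoxd10, 23.8% at Hoxd13, 22.9% and 23.9% at the 2 starts of Hoxd11, and 0% at Hoxd12 and Hoxd9.

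**Figure D2:**
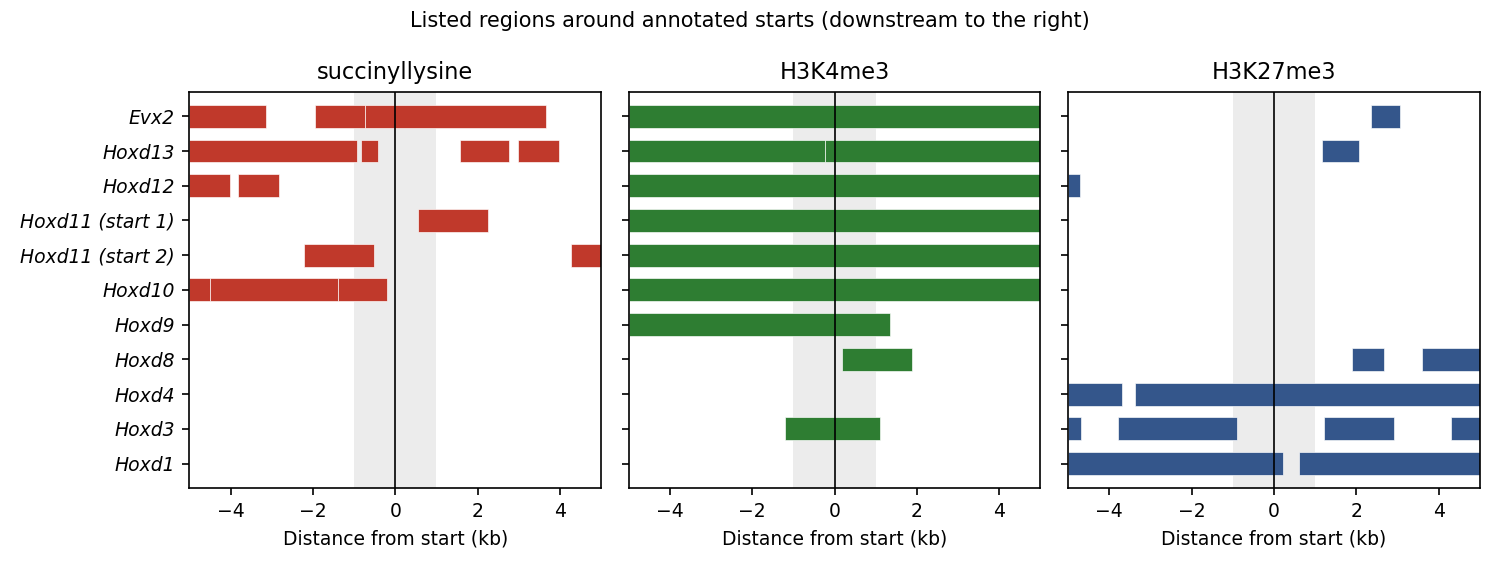
Listed regions within 5 kb of the 11 annotated starts of the 10 genes, with distance from the start in kb and transcription to the right; the grey band marks 1000 bp on each side. Succinyllysine crosses the start of Evx2 and stops 425 bp short of Hoxd13 and 191 bp short of Hoxd10, while H3K4me3 fills the grey band at the upper 7 starts and at Hoxd3.

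Succinyllysine lay within 1000 bp of a start at 4 of 10 members (Evx2, Hoxd13, Hoxd11 and Hoxd10), beside 5.17% of 17492 protein-coding genes with an annotated start. It covered the start base at 1 of the 10 members (Evx2), beside 1.55%. In HoxA with Evx1 it likewise lay within 1000 bp of a start at 4 of 10 genes with an annotated start. A region beside the start and not over it was also the more frequent case elsewhere, since of the 904 genes with succinyllysine within 1000 bp of a start, 271 (30.0%) had it over a start. H3K4me3 covered the start base at 7 of 10 members, beside 54.4% of genes, and H3K27me3 at 2 (Hoxd4 and Hoxd1), beside 4.8%.

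Within the span every succinyllysine base lay on H3K4me3 (21000 of 21000 bp), whereas over the whole list 27.9% of succinyllysine bases did. This was not particular to HoxD. All succinyllysine bases in the spans of HoxA with Evx1 (22600 bp) and HoxC (1000 bp) also lay on H3K4me3, and HoxB had none. In HoxC 100% of these bases lay on H3K27me3 as well, and in HoxA with Evx1 0% did. The 11 HoxD regions took up 43.7% of the joined H3K4me3 domain and 0 bp of the rest of the HoxD span. Their widths ran from 400 to 4600 bp, and the narrowest is at a rank of 3546 of 10888. The next succinyllysine region on the chromosome lay 965.2 kb above the last of them, a 2100 bp region at 75656901 to 75659000, and the nearest below was 3989.6 kb away (600 bp, 70661801 to 70662400). With each chromosome divided into tiles as wide as the span, HoxD ranked 20th of 20014 tiles by succinyllysine bases, 5th of 20040 by H3K4me3 bases and 262nd of 20019 by H3K27me3 bases. The number of tiles depends on the last region of each list on each chromosome. The tile counted for HoxD was the span itself, whereas other tiles were not fitted to any locus and could divide a dense one. This can favour the HoxD ranks. A region was present in 5198 of the 20014 succinyllysine tiles, 10761 of the 20040 H3K4me3 tiles and 9069 of the 20019 H3K27me3 tiles.

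H3K27me3 was not absent from the H3K4me3 domain. A 700 bp region (74656501 to 74657200) lay inside Evx2, wholly under H3K4me3 and wholly under the 4400 bp succinyllysine region. A 900 bp region (74669401 to 74670300) lay inside Hoxd13, wholly under H3K4me3, and shared 500 bp with succinyllysine. These 2 made up 1200 bp of overlap between succinyllysine and H3K27me3, 5.71% of the succinyllysine bases of the span, beside 3.68% over the whole list. They began 2357 bp and 1176 bp after the starts of Evx2 and Hoxd13 in the direction of transcription. H3K27me3 covered 8.20% of Evx2 and 26.6% of Hoxd13, and none of Hoxd12, Hoxd11, Hoxd10 or Hoxd9. Whether the 3 marks lay on the same chromatin or in different lines, samples or cells cannot be told apart from 1 list per antibody.

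The change of marks took place over 14000 bp, from the end of the H3K4me3 domain to the end of the last H3K4me3 region, at Hoxd3. After the end of the H3K4me3 domain at 74699100 came 5700 bp with no region of any list. Hoxd8, a gene of trunk patterning, starts at 74704615 and had no region over its start. A 1700 bp H3K4me3 region (74704801 to 74706500) began 186 bp after that start, and an 800 bp H3K27me3 region (74706501 to 74707300) followed it at the next base, inside the gene. Of Hoxd8, 51.2% lay under H3K4me3 and 24.1% under H3K27me3, with 0 bp shared. Then came 2900 bp of H3K27me3 (74708201 to 74711100), and 2300 bp of H3K4me3 (74710801 to 74713100) that overlapped it by 300 bp.

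That 2300 bp region covered the Hoxd3 start (74711993), reaching 1192 bp before it and 1107 bp after it. Hoxd3 encodes a factor of the upper cervical vertebrae. Its start window was covered over 100% by H3K4me3 and over 5.40% by H3K27me3. Its body showed the reverse, with 91.2% of 36279 bp under H3K27me3 and 3.05% under H3K4me3. The Hoxd3 record is long and encloses all of Hoxd4 and the microRNA gene Mir10b, so these genes share regions. Among the 10 members it was the last start with H3K4me3, and above 74713100 the next H3K4me3 region lay 111800 bp away at Mtx2.

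**Figure D3:**
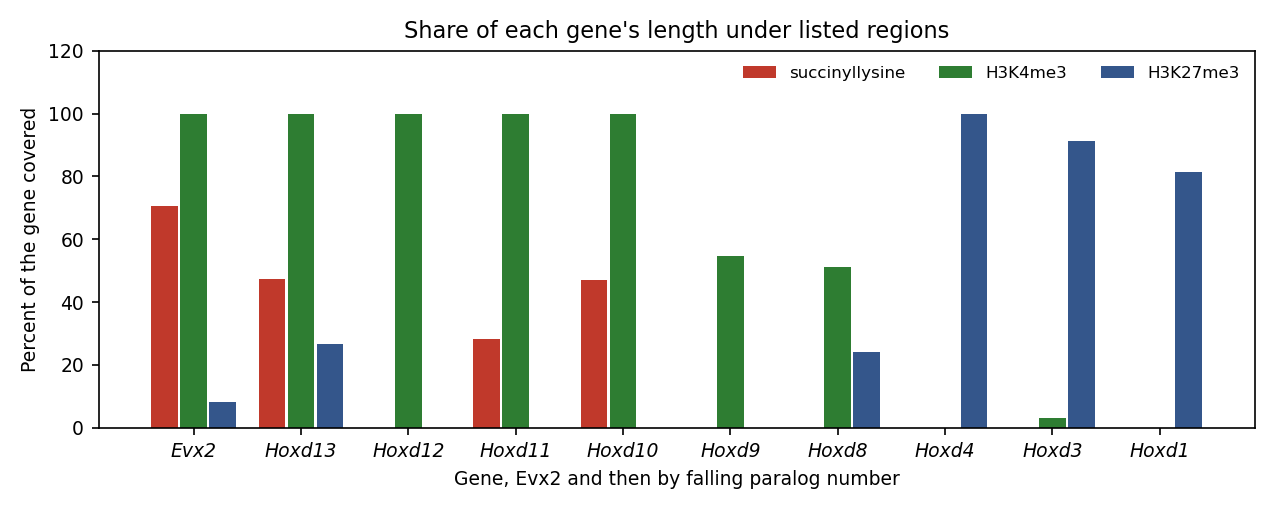
Percent of the length of each of the 10 genes under succinyllysine, H3K4me3 and H3K27me3 regions, with Evx2 first and Hox genes by falling paralog number. H3K4me3 bars are at 100 from Evx2 to Hoxd10 and at 54.7 for Hoxd9, and H3K27me3 bars are at 100 for Hoxd4, 91.2 for Hoxd3 and 81.5 for Hoxd1.

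From 74713101 to the upper end of the span, 95.5% of 62042 bp lay under H3K27me3, with 0 bp of the other marks. Hoxd4, a gene of the hindbrain and cervical region, was covered over 100% of its 7183 bp by regions of 9100 bp (74718601 to 74727700) and 5700 bp (74727701 to 74733400) that met inside it. Hoxd1, which acts in sensory neurons, was covered over 81.5% of its 2163 bp. A 29500 bp region (74733701 to 74763200), 16th of 98342 in width, crossed its start (74762980) and stopped 220 bp past it. A gap of 400 bp followed, and then a 7300 bp region (74763601 to 74770900). At least 50% of the gene lay under H3K27me3 in 3 of 10 members (Hoxd4, Hoxd3 and Hoxd1), against 3.58% of all genes.

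The H3K27me3 block did not stop at Hoxd1. With gaps up to 1000 bp bridged, it ran over 104100 bp (74716301 to 74820400) in 22 regions that covered 94.9% of it, and ended 152175 bp from the Hoxd13 start. Its upper end lay 4500 bp below the 2900 bp H3K4me3 region (74824901 to 74827800) at the start of Mtx2, which encodes a protein of the mitochondrial outer membrane. Among bridged stretches it ranked 18th of 52031.

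Noncoding genes inside a block carried its histone mark, and those in the stretch between the blocks carried both. Haglr, an antisense RNA gene beside Hoxd1 (14475 bp), and Gm14424 (1059 bp) were under H3K27me3 over 100% of their length. Hoxd3os1, opposite Hoxd3, had 37.8% under H3K4me3 and 45.3% under H3K27me3, and its start (74716130) lay in a gap of 1400 bp between H3K27me3 regions. Gm38462 had 32.7% and 40.9%. Mir10b (74726070 to 74726137) lay inside the 9100 bp H3K27me3 region at Hoxd4. Its mature 5′ product is shown beside that of Mir10a, its relative in the HoxB cluster, with the seed (bases 2 to 8) in capitals, since both genes lay under wide H3K27me3 regions.
miR-10b-5p: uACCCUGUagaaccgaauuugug
miR-10a-5p: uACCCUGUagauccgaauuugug
They share the seed and differ by U12A, written as the base of miR-10a-5p, the position from the 5′ end and the base of miR-10b-5p. Mir10a (chromosome 11, 96317165 to 96317274) lay in a 54000 bp H3K27me3 region, and neither gene had H3K4me3 or succinyllysine.

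Counted at gene ends, with a region within 1000 bp of either end, 8 of 10 members had H3K4me3 beside 55.6% of all genes, 4 had H3K27me3 beside 13.6%, and 3 had succinyllysine (Evx2, Hoxd13 and Hoxd11) beside 5.42%. H3K4me3 alone was found at 6 members (52.4% of all genes), both histone marks at 2, Hoxd8 and Hoxd3 (3.13%), H3K27me3 alone at 2, Hoxd4 and Hoxd1 (10.4%), and neither at 0 (34%). Counted at annotated starts, 8 members had H3K4me3 (56.8% of genes) and 3 had H3K27me3 (10.9%). There H3K4me3 alone was found at 7 (54.4%), both at 1, Hoxd3 (2.44%), H3K27me3 alone at 2 (8.49%), and neither at 0 (34.7%). Hoxd8 changed class because its H3K27me3 began 1886 bp after its start. Hoxd10 gained succinyllysine because its record begins 7618 bp before the annotated start that the regions adjoin.

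Set beside the other 3 Hox clusters with 10 kb on each side, HoxD had both histone marks over a large part of its span but on different bases. H3K4me3 covered 39.4% of the HoxD span, 54.0% of HoxA with Evx1, 7.22% of HoxB and 14.3% of HoxC. H3K27me3 covered 48.8% of HoxD, 8.90% of HoxA, 97.8% of HoxB and 99.9% of HoxC. Of the H3K4me3 bases, 3.65% also lay under H3K27me3 in HoxD, 0.910% in HoxA, 100% in HoxB and 99.0% in HoxC, beside 1.43% over the whole list. Succinyllysine covered 15.9% of HoxD (11 regions), 12.3% of HoxA (9 regions), 0% of HoxB and 0.737% of HoxC (1 region of 1000 bp), beside 0.277% overall. Differences between clusters have no test, since each cluster is a single case in 1 list.

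**Figure D4:**
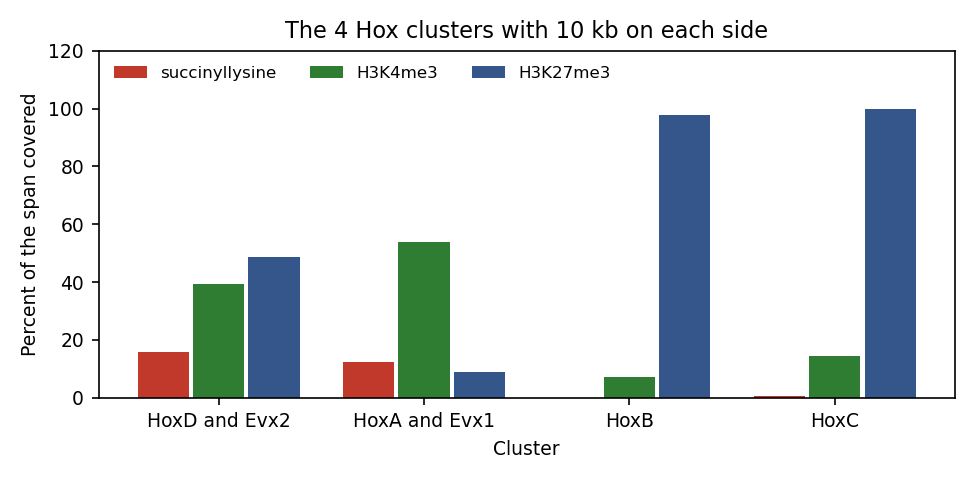
Percent of the span of each Hox cluster, with 10 kb on each side, under regions of each list. HoxD has 39.4% under H3K4me3 and 48.8% under H3K27me3, HoxA is mostly under H3K4me3 (54.0% against 8.90%), and HoxB and HoxC have 97.8% and 99.9% under H3K27me3.

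The paralogs of the posterior members differed by cluster. Hoxa10 and Hoxa9 were wholly under H3K4me3, as Hoxd10 was, with 64.2% and 18.8% of their length under succinyllysine, beside 47.1% for Hoxd10 and 0% for Hoxd9. Hoxa11 had 97.4% of its length under H3K4me3 and no succinyllysine inside, but a region within 1000 bp of its start, where Hoxd11 had 28.4% of its length covered. Hoxa13 had 95.1% under H3K4me3 and no succinyllysine, whereas Hoxd13 had 47.4% under succinyllysine. Hoxc10, Hoxc11, Hoxc12, Hoxc13 and Hoxb13 had 100% of their length under H3K27me3 and 0% under H3K4me3. Hoxb9 and Hoxc9 were also wholly under H3K27me3, with 35.5% and 32.4% of their length under H3K4me3. Evx1, the relative of Evx2 at the HoxA end, had 87.7% under H3K27me3 and 16.4% under H3K4me3, with both marks at its start, and no succinyllysine. Evx2 had 8.20% and 100%.

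Some anterior paralogs had coverage unlike that of the members and some had similar coverage. Hoxa3 had 77.5% under H3K4me3 and 0% under H3K27me3, and Hoxd3 had 3.05% and 91.2%. Hoxa4 had 94.1% under H3K4me3, and Hoxd4 0%. Hoxb3 had 5.88% under H3K4me3 and 100% under H3K27me3. Hoxb1 had 0% and 100%, and Hoxd1 had 0% and 81.5%. Hoxb4 and Hoxc4 were wholly under H3K27me3, as Hoxd4 was, but also carried H3K4me3 over 60.3% and 13.9% of their length.

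Most genes on both sides of the cluster had H3K4me3 of 2700 to 5500 bp at the start. Of 9 flanking genes, 8 had such a region, 0 had H3K27me3, and 1 had succinyllysine, beside 56.8%, 10.9% and 5.17% of all genes with an annotated start. Lnpk, which encodes a protein of endoplasmic reticulum junctions and is the neighbour beyond Evx2, had a 5400 bp H3K4me3 region at its start. Hnrnpa3, which encodes an RNA-binding protein, had the 2100 bp succinyllysine region named above, with 3900 bp of H3K4me3. Chrna1, a muscle acetylcholine receptor gene, had no region of any list there.

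Of 9 genes for Pbx, Meis and Pknox proteins, the homeodomain partners with which Hox proteins bind DNA, 9 had H3K4me3 at a gene end, 0 had H3K27me3 and 0 had succinyllysine, beside 55.6%, 13.6% and 5.42% of all genes. At such shares, 0 of 9 is not set apart from all genes. The widest H3K4me3 regions at their starts were at Meis2 (20100 bp) and Meis1 (12400 bp). Of 7 regulators that act upstream of Hox genes, 2 had H3K4me3 and 2 had H3K27me3 at a gene end. An annotated start was given for 6. H3K4me3 lay at the starts of 4, the retinoic acid receptor genes Rarg (12700 bp), Rara (7900 bp) and Rarb (2100 bp) and Gli3 of the hedgehog pathway (8400 bp), beside 56.8% of all genes with an annotated start. Rara and Rarb had neither histone mark at their gene ends. The intestinal and tail-bud factor genes Cdx2 and Cdx4 had H3K27me3 alone (14100 and 2300 bp). Rarg had succinyllysine as well (2300 bp).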

How the data were processed

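ChIP-seq libraries came from 2 fibroblast lines with 2 samples per antibody and line. Reads were aligned with Bowtie2 2.2.3 to mm10, per the submitters' processing notes. Not given in the sources used here were the calling method, its threshold, the role of input and any pooling of samples. The authors deposited, per antibody, region starts and ends with no other value, and positions were read as 1-based on their grid of 100 bp. Input libraries were not analysed here.

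Genes and promoters came from RefSeq tables for GRCm38.p6, which share coordinates with mm10. Starts were placed from the promoter table, which held all 10 members and 17492 protein-coding genes. Python 3.11.15, NumPy 2.4.6 and pandas 2.3.3 were used. The overlap procedure was tested on 20 simulated lists, with 0 errors in 8000 checks of covered bases and of whether a region was present. The simulated lists held no regions that met without a gap. Numbers of regions and the joining of such regions were not checked. Members, lists and alternatives were chosen with earlier results of these data known. All members were named, with other genes in the span, paralogs, flanking genes, cofactors and upstream regulators by region width. Alternatives were other flanks, windows, widths, merging, midpoints, whole genes, starts alone, and, added after the data were seen, joining of regions without a gap.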

Additional observations from a re-analysis of the deposited data

How the results depend on the processing

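Of 92 values recomputed under alternatives, 82 kept to a set limit. The limit was 1.5 times the reported count or, for a share, the exact 95% binomial interval over the 100 bp grid. That interval treats the bins of the grid as independent, although bins of a region lie side by side. It is a yardstick for change and measures no spread between samples. Keeping only regions wider than the list median, or only those with a midpoint in the span, removed no region of the span. All values under these alternatives equalled the reported ones, and they count among the 82. With regions within 1000 bp merged, the span held 6 succinyllysine and 5 H3K27me3 regions. With 50 kb on each side it held 25 H3K27me3 regions, and succinyllysine covered 9.90% and H3K4me3 25.4% of it. With no flank H3K4me3 covered 44.7%. With windows of 2500 bp around gene ends, 5 members had succinyllysine. Both histone marks were found at 4 members over whole genes, at 1 with annotated starts alone and at 1 when a region had to cover 50% of the window. The other values, among them every count of members with H3K4me3 or H3K27me3 at a gene end, kept to these limits. The count with H3K27me3, reported as 4, still ran from 3 with annotated starts alone to 6 over whole genes. The latter lies exactly at the limit of 1.5 times. No paired analysis was possible because the lists hold no values per sample, and for the same reason no replicate could be left out.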
